A study of Mus musculus with 9 samples.

Results

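The transcripts of 8 genes that build or anchor the intermediate filament, microtubule and cortical actin networks were measured in B16 cells, an established mouse melanoma line. They are the filament genes Vim and Nes, the plakin genes Plec, Dst and Macf1, and the ERM genes Ezr, Msn and Rdx. They were chosen by symbol, and all 8 were found among the 22972 gene names of the deposited FPKM values (fragment numbers scaled by the length of the gene and the size of the library). A total of 9 libraries were compared, 3 in each of 3 groups, all from cells labelled WT, grown on flexible PDMS film and collected at day 3. The CTL group had no straining, and the MS group was strained cyclically for 72 h. The Blebb. group received 100 ng/mL of blebbistatin, an inhibitor of the myosin II motor, for 72 h. The sample labels name only the inhibitor for the last group, while the methods of the study apply straining after the inhibitor was added, so whether these cells were strained is not settled by the sources used here. All groups come from 1 cell line, and the labels call the replicates parallel experiments without saying whether the cultures were independent, so the p-values measure only the spread between these libraries.

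Intermediate filaments are tough, stretchable polymers that spread load through the cell. Vimentin is the main filament protein of mesenchymal cells and of many melanoma cells, and nestin is a large filament protein of progenitor cells that assembles together with vimentin. Plakins are giant linkers. Plectin (Plec) ties intermediate filaments to actin, adhesions and the nucleus, whereas dystonin (Dst) and Macf1 join actin to microtubules. Ezrin (Ezr), moesin (Msn) and radixin (Rdx) bind membrane proteins through an N-terminal FERM domain and actin filaments through the C-terminal tail, and they are opened by phosphorylation. Only transcript levels were measured, so nothing below describes filaments, protein or phosphorylation.

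The positions of the genes are given in GRCm38, the build named in the submitters' processing notes, from the GENCODE M21 annotation. Vim lies at chr2:13573927-13582826 and Nes at chr3:87971078-87980451, both on the plus strand. Plec lies at chr15:76170974-76232574 on the minus strand, Dst at chr1:33908225-34308661 on the plus strand and Macf1 at chr4:123349633-123684360 on the minus strand. Ezr lies at chr17:6738041-6782784 on the minus strand, Msn at chrX:96096042-96168552 on the plus strand and Rdx at chr9:52047173-52088735 on the plus strand. The plakin genes carry some of the longest transcripts of the genome, with 15455 nt for the longest Plec transcript, 23279 nt for Dst and 23495 nt for Macf1, against 2926 nt for Vim and 3164 nt for Ezr. Among annotated protein-coding genes, Plec overlaps Parp10 on the same strand and Ezr overlaps Sytl3 on the opposite strand. Small RNA genes, pseudogenes or other noncoding models, among them Gm12925 antisense to Macf1, also overlap Plec, Dst (7 models), Macf1 (5 models) and Msn, and 0 of these were among the genes tested. The strand setting of the counting is not given in the sources used here, so reads from these shared stretches cannot be told apart.

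Promoter sequences are shown for Vim, the most abundant of the genes, for Ezr, whose level varied least between libraries, and for Nes and Rdx, which had the same order of levels over the 9 libraries. Each sequence runs from 250 bases before to 50 bases after a RefSeq start site in GRCm38.p6, 5′ to 3′ on the strand of the gene. The windows are chr2:13574061-13574360 (plus strand) for Vim, chr17:6782731-6783030 (minus strand) for Ezr and chr3:87970843-87971142 (plus strand) for Nes. Rdx has a pair of starts on the plus strand, with windows at chr9:52046900-52047199 and chr9:52047691-52047990. Capitals mark matches, on either strand, to the TATA box letters TATAAA, to the GC box core GGGCGG and to the AP-1 site letters TGANTCA.
Vim: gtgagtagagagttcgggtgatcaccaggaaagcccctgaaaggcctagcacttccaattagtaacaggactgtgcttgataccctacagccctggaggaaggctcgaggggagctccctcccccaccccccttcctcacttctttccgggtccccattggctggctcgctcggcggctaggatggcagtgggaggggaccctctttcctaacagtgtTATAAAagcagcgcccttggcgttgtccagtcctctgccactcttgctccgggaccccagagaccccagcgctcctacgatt
Ezr: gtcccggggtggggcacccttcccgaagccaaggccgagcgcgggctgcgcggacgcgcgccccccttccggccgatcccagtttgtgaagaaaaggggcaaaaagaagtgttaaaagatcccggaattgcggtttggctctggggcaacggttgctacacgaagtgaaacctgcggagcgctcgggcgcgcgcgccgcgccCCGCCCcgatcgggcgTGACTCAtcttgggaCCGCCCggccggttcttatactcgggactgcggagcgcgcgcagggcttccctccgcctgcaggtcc
Nes: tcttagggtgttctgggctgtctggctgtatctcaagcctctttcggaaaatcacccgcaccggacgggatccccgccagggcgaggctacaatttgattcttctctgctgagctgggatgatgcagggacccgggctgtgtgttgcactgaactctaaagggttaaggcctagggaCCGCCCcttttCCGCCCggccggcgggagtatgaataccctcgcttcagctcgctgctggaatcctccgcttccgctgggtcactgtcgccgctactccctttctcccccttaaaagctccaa
Rdx, first start: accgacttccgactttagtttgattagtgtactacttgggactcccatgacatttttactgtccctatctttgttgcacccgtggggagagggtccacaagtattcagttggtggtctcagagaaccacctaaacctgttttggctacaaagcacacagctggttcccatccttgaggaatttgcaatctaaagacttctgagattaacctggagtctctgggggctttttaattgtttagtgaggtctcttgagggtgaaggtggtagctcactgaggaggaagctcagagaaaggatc
Rdx, second start: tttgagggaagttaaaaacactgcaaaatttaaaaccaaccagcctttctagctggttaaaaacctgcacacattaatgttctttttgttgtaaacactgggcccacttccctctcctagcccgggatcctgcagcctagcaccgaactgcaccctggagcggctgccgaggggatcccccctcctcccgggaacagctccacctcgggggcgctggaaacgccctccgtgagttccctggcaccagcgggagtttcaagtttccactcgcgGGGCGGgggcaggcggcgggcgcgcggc

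Both strands of 9 windows of 7 of the genes were searched for 5 motifs, the 3 above, GGAATG and the CArG box, and Plec had no entry. TATAAA was found upstream of the Vim start site and in 13.6% of 32851 promoter windows of the same length. GGGCGG was found in Ezr, Nes, Msn, the first start of Dst and the second start of Rdx, and in 35.7% of all windows. TGANTCA was found in Ezr, at 1 place where it reads alike on both strands, and in 7.81% of all windows. GGAATG, the TEAD letters, was found in Macf1 and in 14.7% of all windows. The CArG box of SRF had no match in the 9 windows and was found in 1.63% of all windows. No motif marked by capitals overlapped another. The matches are a description of letters, and no binding was measured.

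Vim and Msn stood far above the others in level. Over the 9 libraries the mean was 603 FPKM for Vim, 153 FPKM for Msn, 22.0 FPKM for Ezr, 14.2 FPKM for Rdx, 9.77 FPKM for Plec, 7.23 FPKM for Nes, 5.07 FPKM for Macf1 and 4.69 FPKM for Dst. The genes tested were the 10109 whose mean reached 1 FPKM, and 98.8% of them were less abundant than Vim and 95.5% less abundant than Msn. The lowest Vim value was above the highest Msn value, and the lowest Msn value was above the highest Ezr value, so the order of these 3 genes was the same in all 9 libraries. Below Ezr the ranges overlapped from one gene to the next. Ezr was higher than Rdx in 8 of 9 libraries, Rdx than Plec in 6, Plec than Nes in 5, Nes than Macf1 in 8 and Macf1 than Dst in 6, so these neighbours cannot all be ordered beyond their spread. FPKM is scaled by gene length, so these levels can be compared between genes, but the gene models behind the lengths are not given in the sources used here.

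Markers of the labelled cell line were present. All 7 melanocyte lineage markers, Pmel and Mlana among them, were expressed, with a summed level between 7444 and 12933 FPKM. The 6 fibroblast markers summed to at most 0.567 FPKM, with Dcn and Lum listed at 0, and the 6 keratinocyte markers to at most 0.0314 FPKM. The 6 macrophage markers summed to 2.10 to 3.19 FPKM in CTL, 2.25 to 4.32 FPKM in MS and 2.73 to 3.47 FPKM in Blebb., mostly from the lysosomal gene Cd68, with Ptprc listed at 0 in all 9 libraries. Libraries also differed within groups. On the first principal component, with 70.4% of the variance, CTL 1 (-42.1) and Blebb. 2 (-43.9) lay far from the rest. MS 3 (-10.02) was the next, close to Blebb. 1 (-7.29), and MS 1 (35.8) lay farthest on the other side. This score alone therefore does not set MS 3 apart from Blebb. 1. Deviations from the group mean were also compared between libraries across genes. They had r of 0.92 between CTL 1 and Blebb. 2, 0.75 between CTL 1 and MS 3 and 0.72 between MS 3 and Blebb. 2. Between MS 3 and Blebb. 1 r was -0.42. Alike pairs also occurred outside these libraries, such as CTL 3 and Blebb. 3 with r of 0.84. How far each gene of a library lay from its mean over libraries was related to GC content, with r across genes from -0.64 in MS 1 to 0.55 in Blebb. 1, and to the log of transcript length, with r from -0.28 in Blebb. 1 to 0.39 in CTL 3. Values without CTL 1, MS 3 and Blebb. 2, and with the GC trend of a library removed, are given below for many of the comparisons.

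Vimentin was expressed strongly with or without straining. Vim was at 508, 528 and 752 FPKM in CTL, 779, 511 and 627 FPKM in MS and 697, 500 and 526 FPKM in Blebb. Each group held lower and higher libraries, and the groups overlapped. Group means (± SD, n = 3) were 596 ± 136 for CTL, 639 ± 135 for MS and 574 ± 107 FPKM for Blebb. MS differed from CTL by 0.10 ± 0.22 (log2 fold change ± standard error, used throughout), with an adjusted p of 1.00 in limma, fitted over all genes tested. Blebb. differed from MS by -0.15 ± 0.22 (adjusted p = 0.899, limma). The 95% interval ran from -0.39 to 0.59 in the first and from -0.64 to 0.34 in the latter. Without MS 1 the value of MS against CTL was -0.052, and without CTL 1, MS 3 and Blebb. 2 the values were 0.0015 and -0.060. With the GC trend removed they were 0.026 and 0.021. In such bulk RNA, fewer cells with a transcript and less of it per cell cannot be told apart.

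Nestin was expressed at a low level and varied widely within every group. Nes was at 2.44, 8.93 and 10.97 FPKM in CTL, 12.7, 6.23 and 7.12 FPKM in MS and 5.66, 1.62 and 9.42 FPKM in Blebb. The highest library (MS 1) was 7.81 times the lowest (Blebb. 2), and both CTL and Blebb. held a very low library beside a high one. Group means (± SD, n = 3) were 7.45 ± 4.46 for CTL, 8.67 ± 3.49 for MS and 5.57 ± 3.90 FPKM for Blebb. The MS group lay 0.32 ± 0.58 above CTL (log2), less than the standard error (limma, adjusted p = 1.00). Blebb. differed from MS by -0.71 ± 0.58, with a 95% interval from -2.03 to 0.60 (adjusted p = 0.897, limma). Without CTL 1 the value of MS against CTL turned to -0.23, and without Blebb. 2 that of Blebb. against MS was -0.16. Leaving out CTL 1, MS 3 and Blebb. 2 together gave -0.13 and -0.26. Vim made up between 98.2% and 99.7% of the summed FPKM of Vim and Nes over the 9 libraries. Other filament genes are not part of this sum, among them Bfsp2 at a mean of 53.9 FPKM.

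**Figure D1:**
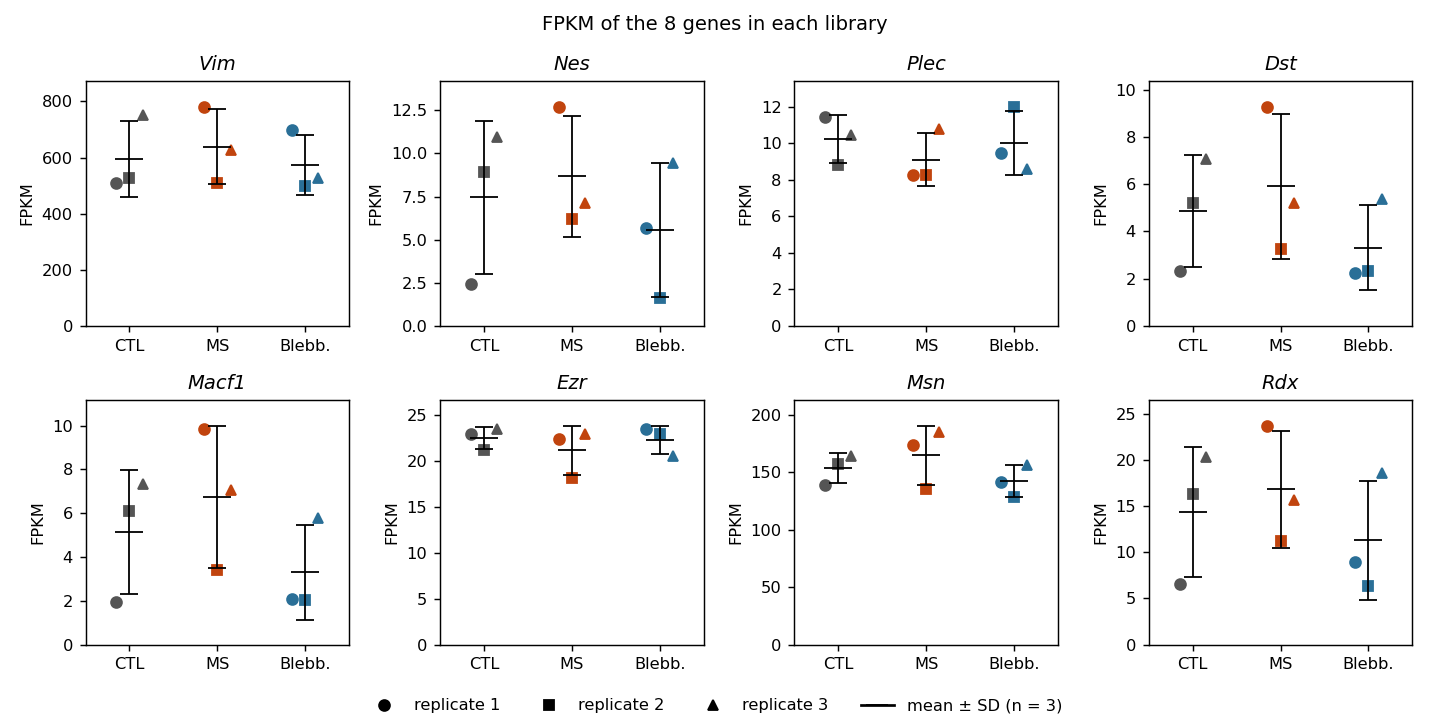
FPKM (vertical axes, from 0) of the 8 genes in the 9 libraries by group, with a point for each replicate and a bar for the mean ± SD (n = 3). Points of the 3 groups overlap in every panel, with Nes from 1.62 to 12.7 FPKM and Ezr from 18.1 to 23.4 FPKM over the libraries.

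Plectin, the linker of intermediate filaments, was the steadiest of the plakins. Plec was at 11.4, 8.83 and 10.4 FPKM in CTL, 8.26, 8.26 and 10.8 FPKM in MS and 9.46, 11.96 and 8.58 FPKM in Blebb. The highest value was only 1.45 times the lowest, and the groups overlapped. MS differed from CTL by -0.16 ± 0.17 (adjusted p = 1.00, limma) and Blebb. from MS by 0.12 ± 0.17 (adjusted p = 0.897, limma). Plec has a GC content of 61.3%, higher than 97.9% of the genes tested. With the GC trend removed the values were -0.043 and -0.039, so the direction in Blebb. against MS turned.

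The spectraplakin genes Dst and Macf1 swung together. Dst was at 2.33, 5.20 and 7.05 FPKM in CTL, 9.25, 3.26 and 5.20 FPKM in MS and 2.24, 2.32 and 5.38 FPKM in Blebb. Macf1 was at 1.95, 6.12 and 7.36 FPKM in CTL, 9.85, 3.38 and 7.04 FPKM in MS and 2.07, 2.02 and 5.80 FPKM in Blebb. For both genes CTL 1, Blebb. 1 and Blebb. 2 were low and MS 1 was high, so each of the CTL and Blebb. groups held low and high libraries. The ratio of Dst to Macf1 stayed between 0.738 and 1.19, while each gene alone spanned 4.13-fold (Dst) and 5.04-fold (Macf1).

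MS differed from CTL by 0.23 ± 0.43 for Dst and 0.37 ± 0.49 for Macf1 on the log2 scale, both with an adjusted p of 1.00 (limma). Blebb. differed from MS by -0.66 ± 0.43 for Dst and -0.87 ± 0.49 for Macf1, the value furthest from 0 among the 8 genes in any of the 3 comparisons, both with an adjusted p of 0.897 (limma). Only 0.317% of the genes tested had a lower log2 fold change than Macf1 in that comparison. This rank does not take the spread into account. The SD of Macf1 over the 9 libraries was above that of 97.1% of the genes tested, and its unadjusted p was 0.112 (limma). The 95% interval of Macf1 ran from -1.98 to 0.25 and included 0. Without CTL 1, MS 3 and Blebb. 2, Dst was at -0.096 and Macf1 at -0.16 in MS against CTL, opposite to the values over all libraries. In Blebb. against MS, Macf1 lay between -1.25 without Blebb. 3 and -0.58 without MS 1.

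The makeup of the plakin transcripts moved with these swings. Plec held 72.7%, 43.8% and 42.0% of the summed FPKM of the 3 plakin genes in CTL, 30.2%, 55.4% and 46.8% in MS and 68.7%, 73.4% and 43.4% in Blebb. The mean share was 52.9 ± 17.2% (SD, n = 3) in CTL, 44.1 ± 12.8% in MS and 61.8 ± 16.1% in Blebb., and the groups overlapped. GC content is 61.3% for Plec, 49.5% for Dst and 46.9% for Macf1. The Plec share was highest in CTL 1, Blebb. 1 and Blebb. 2, whose GC relations were 0.45, 0.55 and 0.54. The next highest GC relation was 0.057, in MS 2. Shares were not computed with the GC trend removed, and whether GC content has a part was not tested.

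Moesin was the main ERM transcript. Msn was at 139, 157 and 164 FPKM in CTL, 174, 136 and 185 FPKM in MS and 142, 128 and 156 FPKM in Blebb. The highest value came from MS 3 and the lowest from Blebb. 2, and the groups overlapped. Group means (± SD, n = 3) were 153 ± 13.2 for CTL, 165 ± 25.8 for MS and 142 ± 13.9 FPKM for Blebb. For MS over CTL limma gave 0.093 ± 0.15 (adjusted p = 1.00) and for Blebb. over MS -0.20 ± 0.15 (adjusted p = 0.897). With MS 3, CTL 1 and Blebb. 2 left out, these values were -0.066 and -0.044, and with the GC trend removed 0.046 and -0.083.

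Ezrin had the smallest spread of the 8 genes. Ezr was at 22.9, 21.1 and 23.4 FPKM in CTL, 22.4, 18.1 and 22.9 FPKM in MS and 23.4, 22.8 and 20.5 FPKM in Blebb. All libraries apart from MS 2 lay above 20 FPKM. The SD over the 9 libraries on the log2(FPKM + 1) scale was 0.12, and only 7.80% of the genes tested had a smaller one. MS differed from CTL by -0.093, with a 95% interval from -0.38 to 0.20, and Blebb. from MS by 0.078, with an interval from -0.21 to 0.37 (adjusted p = 1.00 and 0.908, limma). Without MS 2 these values turned to 0.011 and -0.025, and with the GC trend removed they were -0.037 and -0.0011.

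Radixin had a wider spread than the other ERM genes, with an SD of 0.65 on the log2(FPKM + 1) scale against 0.17 for Msn and 0.12 for Ezr. Rdx was at 6.57, 16.3 and 20.3 FPKM in CTL, 23.7, 11.2 and 15.6 FPKM in MS and 8.996, 6.30 and 18.6 FPKM in Blebb. The 3 lowest libraries were Blebb. 2, CTL 1 and Blebb. 1, and the groups overlapped. Group means (± SD, n = 3) were 14.4 ± 7.06 for CTL, 16.8 ± 6.35 for MS and 11.3 ± 6.46 FPKM for Blebb. For MS over CTL limma gave 0.28 ± 0.47 (adjusted p = 1.00) and for Blebb. over MS -0.60 ± 0.47 (adjusted p = 0.897). Without CTL 1, MS 3 and Blebb. 2 these values were -0.15 and -0.31. With the GC trend removed they were 0.14 and -0.34, and without Blebb. 2 alone that of Blebb. over MS was -0.29.

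Msn held a nearly constant share of the ERM transcripts, while the shares of Ezr and Rdx varied. The Msn share of the summed FPKM of the 3 genes was 80.7 ± 1.74% (SD, n = 3) in CTL, 81.3 ± 2.02% in MS and 80.9 ± 0.860% in Blebb. It lay between 79.0% and 82.7% over the 9 libraries. Msn makes up most of this sum, so its share moves little even when the balance of the 3 genes changes. Its ratio to Ezr ran from 5.61 in Blebb. 2 to 8.06 in MS 3, and its ratio to Rdx from 7.32 in MS 1 to 21.1 in CTL 1. The difference in the Msn share was 0.602 percentage points in MS against CTL (exact two-sided permutation test, p = 0.7), -0.388 in Blebb. against MS (p = 0.8, exact permutation) and 0.213 in Blebb. against CTL (p = 1, exact permutation). The smallest p that groups of 3 can give here is 0.1. The Rdx share ran from 3.91% in CTL 1 to 10.8% in MS 1 and the Ezr share from 10.2% in MS 1 to 14.5% in Blebb. 2. The ratio of Ezr to Rdx was therefore 0.944 in MS 1, the only library where Rdx was the higher, and 3.63 in Blebb. 2.

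**Figure D2:**
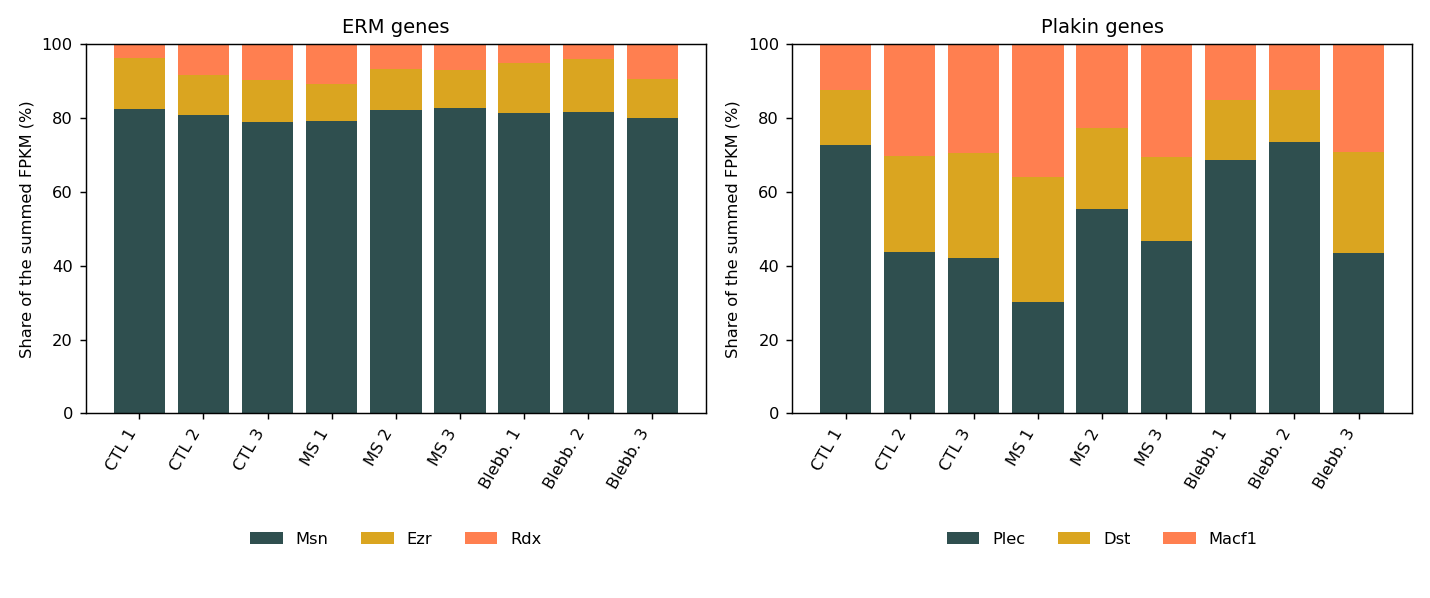
Share of the summed FPKM (vertical axes, %) held by each of the 3 ERM genes (left) and the 3 plakin genes (right) in each library, as stacked bars. The Msn share stays between 79.0% and 82.7%, while the Plec share runs from 30.2% in MS 1 to 73.4% in Blebb. 2.

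The genes fell into a wide and a narrow set by their spread over libraries, a split made after the values were seen. The SD on the log2(FPKM + 1) scale was 0.81 for Nes, 0.73 for Macf1, 0.65 for Rdx and 0.61 for Dst, and each was above that of at least 93.9% of the genes tested. It was 0.26 for Vim, 0.19 for Plec, 0.17 for Msn and 0.12 for Ezr. MS 1 was the highest library for 5 of the 8 genes (Vim, Nes, Dst, Macf1 and Rdx), and Blebb. 2 was the lowest for 4 (Vim, Nes, Msn and Rdx) and the highest for Plec. In the 6 libraries other than CTL 1, MS 3 and Blebb. 2, the highest value was still 4.75 times the lowest for Macf1, 4.13 times for Dst, 2.64 times for Rdx and 2.24 times for Nes.

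Across the 9 libraries, on the log2(FPKM + 1) scale, Pearson's r was 0.98 between Dst and Macf1 (Spearman's rho 0.87) and 0.96 between Nes and Rdx (rho 1.0). Rdx also followed Macf1 with r of 0.97 and Dst with r of 0.96. Msn, of narrow spread, also followed these 4 genes, with r from 0.76 (Nes) to 0.89 (Macf1), and had r of 0.83 with Rdx. Ezr had r between -0.17 (Nes) and 0.00083 (Dst) with them, and between 0.24 (Nes) and 0.37 (Dst) with the GC trend removed. Plec and Nes had r of -0.72, which rested on Blebb. 2 and CTL 1, since it was -0.13 without them. Without the libraries farthest from the median, r was 0.97 between Dst and Macf1 (7 libraries) and 0.96 between Nes and Rdx (7 libraries). With the GC trend removed, r was 0.98 between Dst and Macf1 and 0.97 between Nes and Rdx, while that of Msn went from 0.89 to 0.37 with Macf1 and from 0.83 to 0.26 with Rdx. These values are descriptions over libraries that differ in their GC relation and in their score on the first principal component, which all genes of a library share. Nes had r of 0.97 and Rdx of 0.93 with the score on that component, and Ezr of -0.29. Rdx had r of -0.97 and Dst of -0.96 with the GC relation of the library, Macf1 had r of 0.86 and Rdx of 0.84 with its length relation, and the SD of Rdx went from 0.65 to 0.39 with the GC trend removed while that of Nes went from 0.81 to 0.88. Whether GC content, length or the 2 libraries at the end of the component have a part in the shared swings of these genes was not tested.

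**Figure D3:**
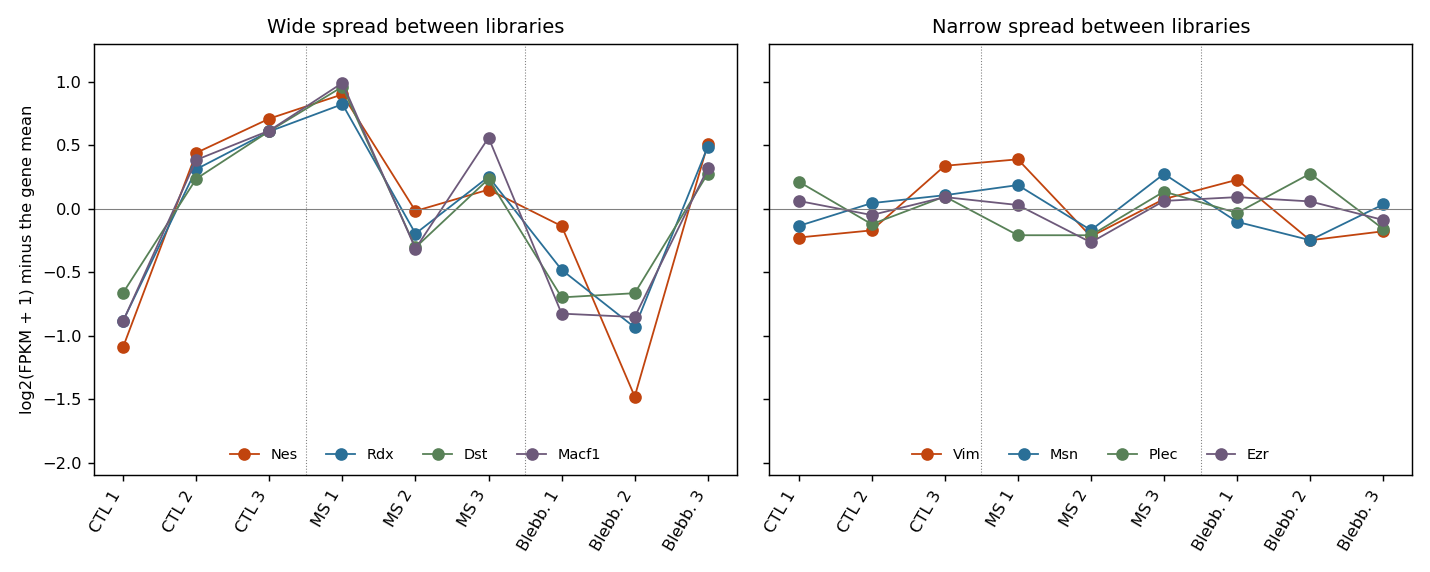
Deviation of log2(FPKM + 1) from the mean of each gene (vertical axes) in the 9 libraries, with Nes, Rdx, Dst and Macf1 on the left and Vim, Msn, Plec and Ezr on the right. The lines on the left fall together in CTL 1 and Blebb. 2 and peak in MS 1, with SDs from 0.61 to 0.81, against 0.12 to 0.26 on the right.

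For each of the 8 genes, the 3 genes with the highest r over the 9 libraries were looked up among the genes tested, as a description. For Rdx they were Sec63, Larp4b and Col4a3bp (lowest r 0.998), for Macf1 Utrn, Chd6 and Pdpk1 (lowest r 0.992) and for Dst Herc1, Rab8b and Dmxl2 (lowest r 0.989). Utrn, like Macf1, encodes a giant actin-binding protein, and the longest Utrn transcript has 12382 nt. For Nes they were Nus1, the chaperone gene Hspa4 and the kinase gene Stk39 (lowest r 0.991). For Msn they were Cyld, Dclre1a and Rab10 (lowest r 0.972), for Plec Ubr4, Arhgef7 and Ulk3 (lowest r 0.974), for Ezr Nup214, Myadm and Rac1 (lowest r 0.901) and for Vim Rnf144a, Cchcr1 and Nxf1 (lowest r 0.928).

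The question of the series was how cyclic straining and myosin inhibition change gene expression. In MS against CTL, 6 of the 8 genes were above 0 (49.5% of all genes tested) and 2, Plec and Ezr, below 0 (50.5% of all). Of the 8 genes, 0 passed an adjusted p of 0.05 (limma), and the background was 0% of all genes tested. At an unadjusted p under 0.05 there were 0 of the 8 genes and 0.158% of all genes tested, and 0 of the 8 had groups that did not overlap, against 3.17% of all. The median log2 fold change of the 8 genes was 0.17, against -0.0018 over all genes tested. In this comparison 0 of the 8 differences were larger than their standard errors, and the smallest unadjusted p was 0.385 (Plec, limma).

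In Blebb. against MS, 6 of the 8 genes were below 0 (51.0% of all genes tested) and 2, Plec and Ezr, above 0 (49.0% of all). This comparison uses the same MS libraries as the one above. Here 0 of the 8 genes passed an adjusted p of 0.05 (0% of all genes tested), 0 passed an unadjusted p of 0.05 (1.25% of all) and 0 had groups that did not overlap (3.73% of all). The median log2 fold change was -0.40, against -0.0059 over all genes tested. The differences of Nes, Dst, Macf1, Msn and Rdx were larger than their standard errors, and the smallest unadjusted p was 0.112 (Macf1, limma). The signs of these 5 genes held with each library left out in turn, though leaving out a CTL library cannot move them. The sizes depended on single libraries. In these fits an unadjusted p under 0.05 came up 2 times for Macf1 and 1 time for Msn, and the smallest adjusted p was 0.450 (limma). Of all 10109 genes tested, the same fits gave an unadjusted p under 0.05 to 34 (without MS 1) to 934 (without Blebb. 3). Without MS 2 there were 598, so such values were more common in some of these fits than in the main one.

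In Blebb. against CTL all 8 genes were below 0, from -0.014 for Ezr to -0.49 for Macf1, where 54.0% of all genes tested were below 0 and 46.0% above. Again 0 of the 8 genes passed an adjusted p of 0.05 (0% of all), 0 passed an unadjusted p of 0.05 (0.0890% of all) and 0 had groups that did not overlap (2.08% of all). Nes was at -0.39 ± 0.58, Dst at -0.43 ± 0.43 and Rdx at -0.32 ± 0.47 (adjusted p = 1.00 for each, limma). Without Blebb. 2 the value of Nes turned to 0.17 and that of Rdx was -0.0095, and without CTL 3 those of Dst and Macf1 were -0.15 and -0.20. Leaving out CTL 1, MS 3 and Blebb. 2 moved Dst to -0.64, Macf1 to -0.76 and Rdx to -0.46. The groups of this comparison are also those of the other two.

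**Figure D4:**
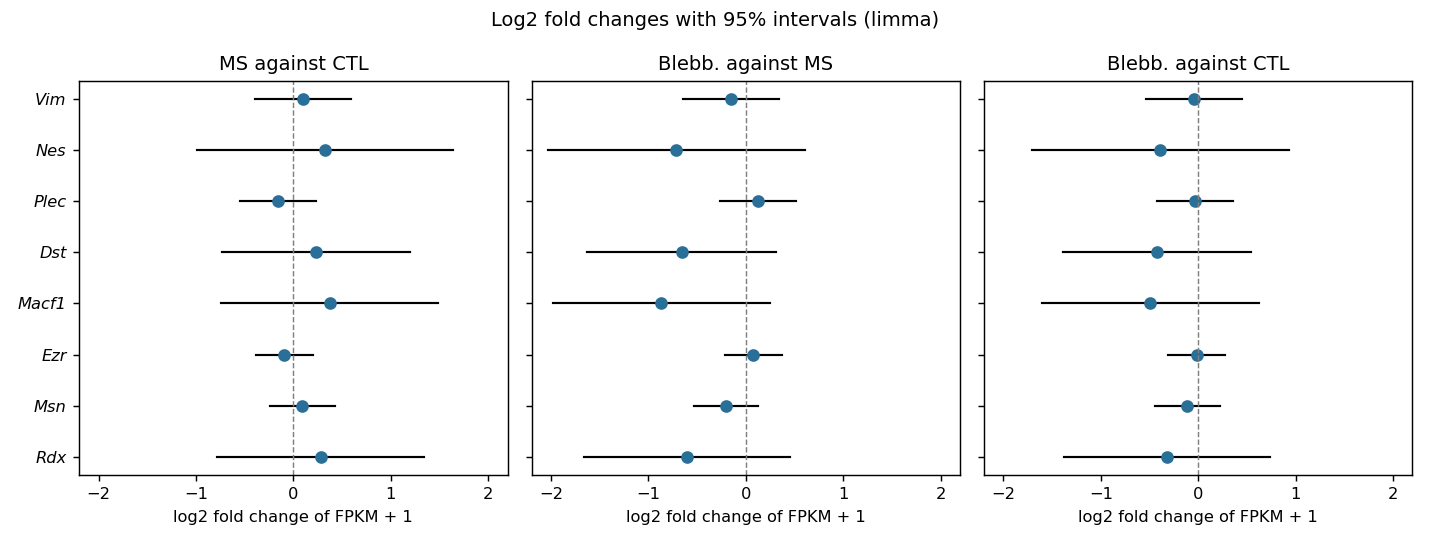
Log2 fold changes of FPKM + 1 (horizontal axes) of the 8 genes in the 3 comparisons, with points for the estimates and lines for the 95% intervals from limma (3 libraries per group). Every interval includes 0, with the widest for Nes (-2.03 to 0.60 in Blebb. against MS) and the narrowest for Ezr.

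The partners of these genes were described from lists. Of 17 other intermediate filament genes, 4 were tested, and 8 were listed at 0 in all libraries, among them the simple epithelial keratins Krt8, Krt18 and Krt19. The most abundant was Bfsp2, a filament gene of the eye lens, at a mean of 53.9 FPKM (42.8 to 70.3 FPKM over the libraries), followed by Krt80 at 7.92 FPKM. The number that rose or fell in any of the 3 comparisons was 0 (limma), and the values furthest from 0 were 0.14 for Krt80 in MS against CTL, 0.24 for Des in Blebb. against MS and 0.29 for Krt80 in Blebb. against CTL. The other plakins Dsp, Evpl, Ppl and Eppk1 were at most 0.0250 FPKM in any library, so plectin, dystonin and Macf1 made up nearly all plakin transcripts. Among hemidesmosome partners, the tetraspanin gene Cd151 was at 197 FPKM and Itga6, the laminin receptor chain, at 10.9 FPKM on average. Itga6 ranged from 4.62 to 18.1 FPKM over the libraries, and its log2 fold changes were 0.30 for MS over CTL, -0.68 for Blebb. over MS and -0.39 for Blebb. over CTL (adjusted p = 1.00, 0.897 and 1.00, limma).

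Of 14 FERM relatives and ERM scaffolds, 12 were tested. Slc9a3r1, the scaffold that ties ERM proteins to membrane proteins, was the most abundant at 66.4 FPKM, and Nf2, which encodes the ERM relative merlin, was next at 40.7 FPKM. In MS against CTL 2 of the 12 were above 0 (49.5% of all genes tested), with a median of -0.13 (-0.0018 over all). In Blebb. against MS 7 were above 0 (49.0% of all), with a median of 0.13 (-0.0059 over all). Of the 12, 0 passed in either direction in any comparison (limma). The values furthest from 0 were -0.23 for Epb41l1 in MS against CTL, -0.43 for Epb41l2 in Blebb. against MS and -0.30 for Frmd4a in Blebb. against CTL. Of 11 ERM membrane ligands, 5 were tested and 0 passed (limma). Cd44, the hyaluronan receptor, was at 50.9 FPKM and Cd9 at 18.0 FPKM. The values furthest from 0 were 0.17 for Cd9 in MS against CTL, -0.23 for Sdc2 in Blebb. against MS and -0.15 for Sdc2 in Blebb. against CTL.

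Of 15 kinases that act on ERM proteins or vimentin, 13 were tested and 0 passed (limma). The mitotic kinase gene Plk1 was the most abundant at 74.1 FPKM, followed by Cdc42bpb at 56.4 FPKM. Rock2, a kinase that activates myosin II, spread even wider than Nes, from 0.239 to 7.03 FPKM over the libraries, and its log2 fold change of -0.46 in Blebb. against MS had a standard error of 0.75, with -0.31 in Blebb. against CTL. Cdk1 had the largest value in MS against CTL, 0.23 with a standard error of 0.50. At an unadjusted p under 0.05 (limma) there was 1 of the 13 in Blebb. against MS, against 1.25% of all genes tested. This was Cdc42bpg at 0.33, named after its value was seen (adjusted p = 0.897, limma). Of 16 microtubule and actin partners of the spectraplakins, 14 were tested and 0 passed (limma). Actn4 was at 101 FPKM and Sptan1 at 69.2 FPKM. In Blebb. against MS 4 of the 14 were above 0 (49.0% of all genes tested), with a median of -0.14 (-0.0059 over all). The value furthest from 0 there was -0.60 for Gas2l3, which links actin to microtubules. The values furthest from 0 in the other comparisons were 0.30 for Clasp2 in MS against CTL and -0.44 for Sptbn1 in Blebb. against CTL.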

How the data were processed

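RNA sequencing of B16 cells was compared in 9 libraries, 3 each for CTL, MS and Blebb., grouped by the sample labels. The authors extracted RNA with TRIzol and deposited an FPKM value per gene and library, already scaled by gene length and mapped fragments. The submitters' processing notes name GRCm38 (mm10), and the aligner, counting program and annotation are not given in the sources used here. The column of CTL 1 is headed by the sample name and was read as FPKM, since its sum of 484093 is close to the others (439939 or more). Depth could not be recovered from the low values and is unknown, so no counting interval is given.

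Values were transformed as log2(FPKM + 1), which understates the change of low genes. Genes averaging 1 FPKM or more over the libraries (10109, all 8 genes among them) entered limma 3.58.1 (R 4.3.3, mean-variance trend, two-sided, Benjamini-Hochberg adjustment, threshold 0.05). It was first tested on simulated data with independent noise for each gene, unlike the libraries here, whose genes share a main component. There it called 48% to 53% of the genes given a log2 change of 1 and 86% to 92.5% of those given 2. The changed genes were drawn at random from all genes tested, so these shares are averages. No such share was obtained for genes of wide spread such as Nes, Macf1, Rdx and Dst. Shares were compared by exact permutation (scipy 1.17.1). GC content and length came from GENCODE M21 and were known for 95.6% of these genes. The genes and lists were chosen with earlier results of these data known. In each list of partner genes the 2 most abundant genes and the one furthest from 0 in each comparison were named. The cell type markers were summed and not named by this rule.

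Alternatives changed the pseudocount (0.1 FPKM), the minimum (none, or 5 FPKM), the scaling (median-of-ratios factors or quantiles), the trend, the groups in the fit, a block for the replicate number, the GC trend of each library, or left libraries out. Of the library pairs, 0 held identical values.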

Additional observations from a re-analysis of the deposited data

How the results depend on the processing

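Of the 8 genes, 0 passed the threshold under any alternative. With a library left out, 197 of 216 log2 fold changes kept their direction and 0 passed the threshold (smallest adjusted p 0.450). Under the other alternatives 247 of 261 kept their direction (smallest 0.881). Many of these agreements were fixed in advance. Leaving out a library of the third group does not move the log2 fold change of a comparison. Nor do the minimum, the trend, the groups in the fit or the replicate block, so both counts overstate how well the directions held. Without CTL 1, MS 3 and Blebb. 2 the values of MS against CTL were -0.13 for Nes, -0.096 for Dst, -0.16 for Macf1, -0.066 for Msn and -0.15 for Rdx, all reversed, and the difference in the Msn share of Blebb. against MS was 0.0434 percentage points, also reversed. With GC content corrected for, both with and without the replicate block, Blebb. against MS gave 0.021 for Vim, -0.039 for Plec and -0.0011 for Ezr, and Blebb. against CTL 0.047 for Vim. Median-of-ratios factors gave 0.013 for Ezr in Blebb. against CTL. The cause of these reversals was not tested. At the minimum of 5 FPKM Dst was not tested.

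With each library left out in turn, MS against CTL ranged from -0.052 to 0.28 for Vim, -0.23 to 0.67 for Nes, -0.13 to 0.54 for Dst, -0.088 to 0.74 for Macf1, -0.15 to 0.011 for Ezr and -0.17 to 0.58 for Rdx. Blebb. against MS ranged from -0.30 to 0.0053 for Vim, -0.0021 to 0.24 for Plec and -0.025 to 0.14 for Ezr. Blebb. against CTL ranged from -0.19 to 0.13 for Vim, -0.94 to 0.17 for Nes, -0.16 to 0.059 for Plec and -0.057 to 0.040 for Ezr. The difference in the Msn share ranged from -0.276 to 1.76 in MS against CTL, -1.54 to 0.311 in Blebb. against MS and -0.665 to 1.08 in Blebb. against CTL. Over all genes, the number called ranged from 0 to 1 in MS against CTL and in Blebb. against MS, with 1 in each without MS 2, and was 0 in Blebb. against CTL. In Blebb. against MS, an unadjusted p under 0.05 was given to 126 genes, to 934 without Blebb. 3 and to 598 without MS 2.

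Libraries with the same replicate number deviated from their group means with r from -0.78 to 0.84 across genes (median -0.23), so the numbers were not taken to pair the samples. With the number as a block, 0 of the 8 genes and 0 genes in all were called in each comparison. The Msn share gave p = 0.75, 0.75 and 1 in exact permutations within numbers, which allow few arrangements and no small p. Values near 1 FPKM and the unknown depth limit what can be said of Nes, Dst and Macf1 in CTL 1 and Blebb. 2. The same limit holds for Dst and Macf1 in Blebb. 1.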
